A study of Homo sapiens with 57 samples.

Results

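The genes described here are 8 genes for proteins of the extracellular matrix or of its turnover, out of the 412 genes on an expression panel: FN1 (Entrez gene 2335), VCAN (1462), SDC2 (6383), LAMB1 (3912), LAMC1 (3915), SPP1 (6696), IGFBP7 (3490) and MMP7 (4316). They were chosen on measured values, since the fold changes of these genes with the herbs were known when the list was drawn up. Their responses to the herbs are therefore given as a description, without a p-value. All 8 had counts in every set of wells and were tested with the rest of the panel.

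HK-2, an established human cell line derived from proximal tubule epithelium, was grown in multiwell plates and exposed for 24 h to a Roucongrong, Yinyanghuo or Gusuibu extract at 100 μg/mL. Each herb was given to 3 wells of 3000 cells. Every herb had a set of its own of 16 control wells with 0.5% DMSO, so that 57 wells were measured in all. The labels give no DMSO content for the herb wells. The panel was read by RASL-seq: 2 neighbouring probes that anneal to the same mRNA are joined by a ligase, and the joined products are amplified and sequenced. The extracts are ethanol extracts of whole herbs, so that no single compound was given. Nothing in the labels says that the wells of a group came from separate cultures, so p-values measure only the spread between these wells, which may be technical. Each herb was compared within its own set, and since no herb was given in more than 1 set, a response that differs between herbs and one that differs between sets cannot be told apart. A lower count per well can come from fewer transcripts in each cell or from fewer cells with transcripts, and these cannot be told apart in lysates of whole wells.

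The extracellular matrix is the protein and sugar network that cells secrete around themselves. Fibronectin binds integrins and collagens, laminins build the basement membrane under the tubule, and proteoglycans such as versican and syndecan carry long sugar chains that bind water and growth factors. Matricellular proteins such as osteopontin act on cells more than they build the network, and matrix metalloproteinases cut it. In the kidney, tubule cells deposit laminin on their basal side, and fibronectin and versican are well known from scarring.

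The stretch of 250 bases upstream of the RefSeq gene start (assembly GRCh38.p14) could be taken for 6 of the 8 genes. A search on both strands covered 4 letter patterns: TATAAA (the TATA box), TGACGTCA (the cyclic AMP response element), TGANTCA (the AP-1 site) and GGGCGG (the GC box). The stretches of FN1, VCAN, LAMC1 and MMP7 are shown because the first 3 were lower with the same herb while MMP7 was not. SPP1, which was also lower with that herb, and LAMB1, which was not, are described below but not shown. Matches are in capitals, with overlapping ones run together. FN1 lies on the minus strand at chr2:215436069-215436318, VCAN on the plus strand at chr5:83471494-83471743, LAMC1 on the plus strand at chr1:183023170-183023419 and MMP7 on the minus strand at chr11:102530748-102530997. Each is printed 5′ to 3′ in the direction of the gene.
FN1: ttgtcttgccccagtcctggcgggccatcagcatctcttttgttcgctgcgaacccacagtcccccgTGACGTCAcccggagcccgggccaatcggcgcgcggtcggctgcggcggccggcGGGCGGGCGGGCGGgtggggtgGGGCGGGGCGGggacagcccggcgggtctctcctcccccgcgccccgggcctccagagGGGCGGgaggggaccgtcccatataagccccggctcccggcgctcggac
VCAN: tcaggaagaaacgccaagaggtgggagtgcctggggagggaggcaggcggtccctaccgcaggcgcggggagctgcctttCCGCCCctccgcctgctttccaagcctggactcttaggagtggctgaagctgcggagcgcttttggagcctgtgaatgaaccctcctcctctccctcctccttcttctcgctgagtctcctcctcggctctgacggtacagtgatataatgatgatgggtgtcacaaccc
LAMC1: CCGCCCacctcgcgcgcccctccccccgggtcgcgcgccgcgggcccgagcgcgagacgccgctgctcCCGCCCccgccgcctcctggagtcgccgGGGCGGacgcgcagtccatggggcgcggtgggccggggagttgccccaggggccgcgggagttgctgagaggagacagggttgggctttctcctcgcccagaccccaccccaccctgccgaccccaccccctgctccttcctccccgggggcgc
MMP7: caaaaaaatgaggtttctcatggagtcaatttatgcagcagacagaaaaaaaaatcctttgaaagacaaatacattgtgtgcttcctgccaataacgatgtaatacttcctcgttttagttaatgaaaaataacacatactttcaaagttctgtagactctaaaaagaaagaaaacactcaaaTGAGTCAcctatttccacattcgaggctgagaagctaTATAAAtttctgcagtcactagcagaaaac
The FN1 stretch was 76.4% G and C and held 6 overlapping or neighbouring GGGCGG matches and 1 TGACGTCA match that began at -183 counted from the start. LAMC1 had 3 GGGCGG matches at 79.6% G and C, LAMB1 had 4 at 70.4%, and VCAN had 1 at 60.8%. The MMP7 stretch was different in composition, at 33.6% G and C. It had no match to GGGCGG and held TATAAA at -30 and TGANTCA at -67 from the start. SPP1, at 44.8% G and C, held none of the 4 patterns. Among 35116 stretches of the same length, GGGCGG was found in 42.6%, TATAAA in 10.7%, TGANTCA in 6.57% and TGACGTCA in 1.65%. These matches are letters in a window and say nothing on which factor acted in these cells.

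Total counts per well ran from 13581 to 75969, and the lowest total belonged to replicate 2 of Yinyanghuo, whose herb wells had 13581 to 35307 counts (median 21916) beside 19690 to 40863 (median 28328) in its DMSO wells. The reads carry no molecular identifiers, so errors that follow from depth cover counting error only. Among markers listed for the cell types a kidney culture could hold, only CDH2 of those for epithelial and proximal tubule cells was on the panel. It had a mean of 492 counts per well, but it is not specific to epithelium. COL1A2 for fibroblasts, CDH5 for endothelium and ITGAM for leukocytes had under 1 count per well on average, and KDR, also an endothelial marker, had 9.28. The identity of the cells could thus be checked on few genes only. Together the 8 matrix genes made up 5.69% to 9.78% of the counts in the DMSO wells of all sets. The range was 6.55% to 9.78% in the DMSO wells of the Yinyanghuo set and 2.89% to 4.21% in its herb wells. FN1 alone made up 3.47% to 6.93% and 1.42% to 1.90% of the counts in these.

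With Yinyanghuo, 6 of the 8 genes were lower than in its DMSO wells and met the study's criteria, an unadjusted p under 0.05 with a fold change above 1.5 or below 0.67 (the share of all 400 genes tested that met them in this direction was 7.25%). By edgeR with TMM, they were FN1, VCAN, SDC2, LAMC1, SPP1 and IGFBP7. None of the 8 met the criteria in the higher direction by edgeR with TMM, where the share of all genes was 7.75%. DESeq2, the program named in the submitters' notes, called MMP7 there and did not call SPP1 on the lower side. By DESeq2, 54 of 400 genes met the criteria in either direction. With Roucongrong, VCAN met them on the lower side (2.99% of 402 genes) and MMP7 on the higher side (7.21%). With Gusuibu, VCAN alone met them, on the higher side (7.71%), and none did so on the lower side (1.74%). Since these contrasts chose the genes, nothing is read from the shares. The median log2 fold change of the 8 genes was -0.70 with Yinyanghuo, -0.037 with Roucongrong and -0.19 with Gusuibu, beside -0.13, -0.036 and 0.035 over all genes tested. By wells, FN1, VCAN and IGFBP7 had all 3 Yinyanghuo wells below all 16 DMSO wells (3.0% of 400 genes), SDC2 had all 3 Gusuibu wells below them (1.24% of 402 genes) and VCAN had all 3 Gusuibu wells above them (0.249%). With Roucongrong none of the 8 was outside the DMSO range in all 3 wells on the lower (1.24%) or the higher side (0.995%), nor was any on the higher side with Yinyanghuo (1.25%).

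**Figure D1:**
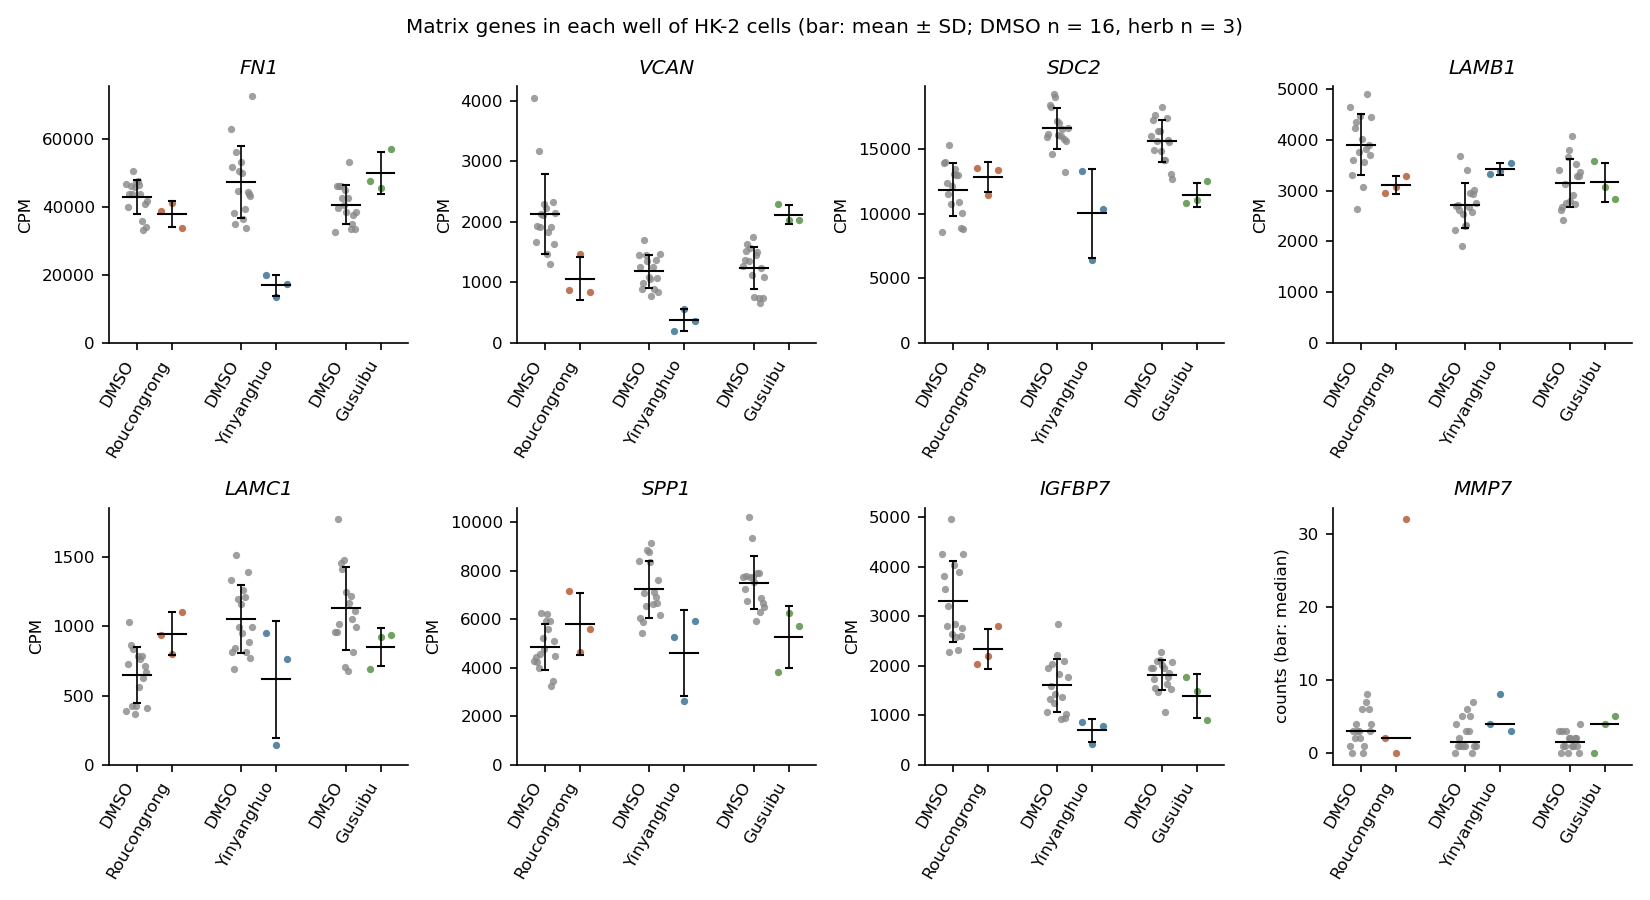
Level of the 8 matrix genes in each well, by set; grey points are the 16 DMSO wells and coloured points the 3 herb wells, on a linear axis of CPM (counts scaled by TMM within the set), or of raw counts for MMP7. Bars are mean ± SD, and the median for MMP7. The 3 Yinyanghuo wells lie below all of their DMSO wells for FN1, VCAN and IGFBP7, and the 3 Gusuibu wells lie above theirs for VCAN.

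FN1 encodes fibronectin, the adhesive glycoprotein that cells assemble into fibrils through integrins. In the Yinyanghuo set the 3 herb wells had 19845, 13628 and 17360 CPM (counts scaled to a common library total by TMM within the set), and the 16 DMSO wells ran from 33762 over a median of 44519 to 72458 CPM. The herb wells were all below the lowest DMSO well. Their mean of 16944 ± 3129 CPM (SD, n = 3) was 2.78 times lower than the DMSO mean of 47196 ± 10512 CPM (SD, n = 16) by the fitted fold change, which was -1.48 (SE 0.19) on the log2 scale. In raw terms, FN1 took 1.42% to 1.90% of all counts in the Yinyanghuo wells and 3.47% to 6.93% in the DMSO wells of that set. Leaving out any of the 3 herb wells kept the value between -1.60 and -1.34, and taking the controls of the other herbs gave -1.35. Depth moved with the level of several of the genes: among the 16 DMSO wells of this set the log2 level and the log2 total count had r = 0.51 for FN1, 0.56 for IGFBP7, 0.49 for SPP1 and 0.38 for LAMC1, and between -0.14 and 0.23 for VCAN, SDC2 and LAMB1. In the Gusuibu set r was 0.55 for VCAN and 0.49 for SPP1, and in the Roucongrong set 0.53 for SPP1. The part of depth in the differences was not tested.

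With Roucongrong, FN1 had 38748, 41109 and 33749 CPM against 33187 to 50405 CPM (median 43743) in its DMSO wells. The herb wells lay inside the DMSO range and below its median, with a log2 fold change of -0.18 (SE 0.11) that did not meet the criteria. With Gusuibu it had 47541, 45422 and 56960 CPM against 32467 to 53228 CPM (median 40055). Here all 3 herb wells were above the DMSO median and 1 was above every DMSO well, but the log2 fold change of 0.30 (SE 0.11) stayed under the fold that the criteria ask for. The log2 fold change of FN1 with Yinyanghuo was lower than that with Roucongrong by a log2 difference of -1.28 (SE 0.20) and than that with Gusuibu by one of -1.77 (SE 0.21).

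VCAN encodes versican, a large chondroitin sulfate proteoglycan that binds hyaluronan and loosens the matrix around cells. It was the only one of the 8 to meet the criteria with every herb, and the direction was not the same. The Yinyanghuo wells had 190, 565 and 366 CPM, from 4, 8 and 13 counts, and the DMSO wells had 766 to 1699 CPM (median 1161). Although the counts are few, each herb well was below every DMSO well. The mean was 374 ± 187 CPM (SD, n = 3) against 1178 ± 270 CPM (SD, n = 16), a log2 fold change of -1.71 (SE 0.30), or 3.27 times lower.

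With Roucongrong, VCAN had 872, 1472 and 831 CPM against 1306 to 4049 CPM (median 2013) in the DMSO wells. Replicates 1 and 3 were below every DMSO well and replicate 2 was within the range. The means were 1058 ± 359 CPM (SD, n = 3) and 2131 ± 665 CPM (SD, n = 16), with a log2 fold change of -0.99 (SE 0.26). The control wells of this set had more VCAN than those of the other herbs, and against the latter the log2 fold change was -0.12 and did not meet the criteria.

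With Gusuibu, VCAN was on the other side. The herb wells had 2294, 2023 and 2024 CPM, and the DMSO wells had 661 to 1748 CPM (median 1310). All 3 herb wells were above all 16 DMSO wells. The mean of 2114 ± 156 CPM (SD, n = 3) stood against 1234 ± 351 CPM (SD, n = 16), a log2 fold change of 0.75 (SE 0.21) or 1.68-fold. Against the controls of the other herbs, it was 0.28 and did not meet the criteria. KDR, the endothelial marker, also met the criteria on the higher side in these wells (4, 40 and 15 counts against 2 to 21, log2 fold change 1.34, SE 0.47). CDH2, from the list for epithelial and proximal tubule cells, was at -0.58 (SE 0.10) without meeting the criteria. All 3 herb wells were below all 16 DMSO wells for CDH2. The part of KDR and CDH2 in the result was not tested. The log2 fold changes of VCAN differed by -2.46 (SE 0.40) between Yinyanghuo and Gusuibu, by -1.76 (SE 0.33) between Roucongrong and Gusuibu, and by -0.71 (SE 0.41) between Yinyanghuo and Roucongrong.

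**Figure D2:**
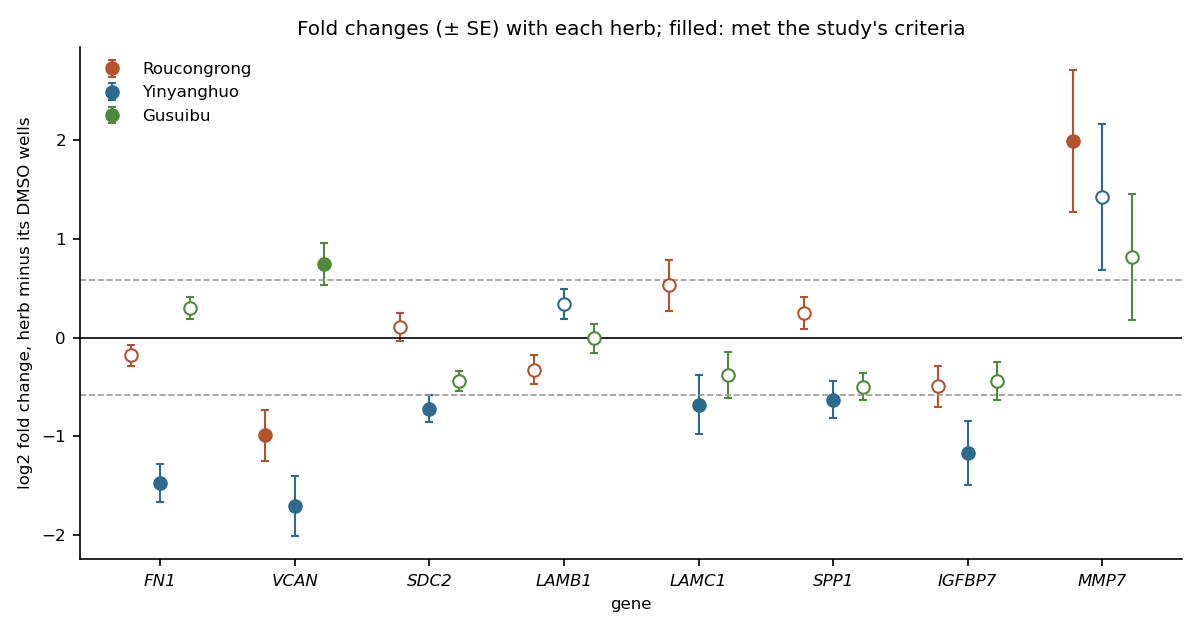
Log2 fold change (herb minus its own DMSO wells) of each gene with each herb, with its standard error; filled points met the study's criteria and dashed lines mark the fold changes of 1.5 and 0.67. VCAN lies at -0.99, -1.71 and 0.75 with Roucongrong, Yinyanghuo and Gusuibu, and FN1 at -0.18, -1.48 and 0.30.

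The ratio of FN1 to VCAN counts within a well does not depend on how wells are scaled. It was 44.4, 27.9 and 40.6 in the Roucongrong wells and 11.5 to 31.6 (median 21.6) in their DMSO wells, so that VCAN was the lower of the pair in replicates 1 and 3. In the Yinyanghuo wells it was 104, 24.1 and 47.4, on both sides of the DMSO range of 30.9 to 51.0 (median 41.1), and rests on 4 to 13 counts of VCAN. In the Gusuibu wells it was 20.7, 22.5 and 28.1, at the low end of or below the DMSO range of 25.5 to 52.7 (median 33.9). The Roucongrong and Gusuibu wells thus lay at opposite ends of their DMSO ranges.

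SDC2 encodes syndecan-2, a proteoglycan anchored in the cell membrane whose heparan sulfate chains hold growth factors and matrix proteins. The Yinyanghuo wells had 13277, 6425 and 10343 CPM, and the DMSO wells 13222 to 19202 CPM (median 16348). Replicates 2 and 3 were below every DMSO well, and replicate 1 was just above the lowest. This gave a log2 fold change of -0.72 (SE 0.14), from means of 10015 ± 3438 CPM (SD, n = 3) and 16575 ± 1573 CPM (SD, n = 16). Without replicate 2, the shallowest well of the series, it was -0.49 and no longer met the criteria.

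In the Gusuibu set SDC2 was lower without meeting the criteria. Its herb wells had 10831, 11010 and 12530 CPM and its DMSO wells 12639 to 18194 CPM (median 15624), so that the groups did not overlap. Its log2 fold change, -0.44 (SE 0.10), is smaller than the criteria ask for. With Roucongrong, SDC2 had 13549, 11450 and 13345 CPM within a DMSO range of 8577 to 15291 CPM, a log2 fold change of 0.11 (SE 0.14). The log2 fold changes with Yinyanghuo and Roucongrong differed by -0.81 (SE 0.19).

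LAMB1 and LAMC1 encode the beta-1 and gamma-1 chains, which join an alpha chain in most laminins of the basement membrane. LAMB1 had 3331, 3389 and 3551 CPM in the Yinyanghuo wells, all above the DMSO median of 2692 CPM and inside the range of 1900 to 3686 CPM. Of the 7 genes with a mean count of 20 or more in the DMSO wells it was the only one that was not lower with this herb, at a log2 fold change of 0.34 (SE 0.15) that did not meet the criteria. With Roucongrong it had 2959, 3068 and 3295 CPM, below the DMSO median of 3861 CPM and within 2640 to 4905 CPM, a log2 fold change of -0.32 (SE 0.15). With Gusuibu, at 3575, 3072 and 2834 CPM against 2422 to 4073 CPM, it was -0.0081 (SE 0.14), and 9 of the 11 alternative settings put it on the other side of 0.

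LAMC1 had few counts. The Yinyanghuo wells had 952, 141 and 761 CPM, from 20, 2 and 27 counts, and the DMSO wells had 692 to 1518 CPM (median 998). Only replicate 2 lay outside the DMSO range. On the log2 scale the fold change was -0.68 (SE 0.30), and without replicate 2 it was -0.32 and did not meet the criteria. With Roucongrong, LAMC1 had 934, 798 and 1107 CPM, all above the DMSO median of 691 CPM and 1 of them above the highest of 1029 CPM, with a log2 fold change of 0.53 (SE 0.26). With Gusuibu it had 694, 922 and 938 CPM, all below the median of 1083 CPM and within the DMSO range, with a log2 fold change of -0.38 (SE 0.24). Neither met the criteria. The log2 fold change with Yinyanghuo differed from that with Roucongrong by -1.19 (SE 0.38) for LAMC1 and by 0.67 (SE 0.21), in the other direction, for LAMB1.

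The ratio of the laminin chains within a well uses the same counts without any scaling. There were 3.5, 24.0 and 4.67 LAMB1 counts for each LAMC1 count in the Yinyanghuo wells, and 1.59 to 3.93 (median 2.61) in their DMSO wells. Replicates 2 and 3 were above all of these and replicate 1 was within them. In the Roucongrong wells the ratio was 3.17, 3.84 and 2.98, against a DMSO range of 3.16 to 11.9 (median 5.46), with replicate 3 below it and the others at its low end. In the Gusuibu wells it was 5.15, 3.33 and 3.02, inside the DMSO range of 1.5 to 6.04 (median 2.61). The ranges of the herb wells overlapped between herbs, while the DMSO median was higher in the Roucongrong set. The value of 24.0 rests on 2 LAMC1 counts. Against the controls of the other herbs, LAMB1 changed sign with Roucongrong (0.16) and Yinyanghuo (-0.092), and LAMC1 with Roucongrong (-0.13) and Gusuibu (0.0090).

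SPP1 encodes osteopontin, a secreted phosphoprotein that binds integrins and CD44 and is made by tubule cells. The Yinyanghuo wells had 5282, 2613 and 5946 CPM, and the DMSO wells 5438 to 9159 CPM (median 6993). Replicates 1 and 2 were below every DMSO well. The fitted value was -0.63 (SE 0.18) on the log2 scale, from means of 4614 ± 1765 CPM (SD, n = 3) and 7239 ± 1165 CPM (SD, n = 16). It was close to the fold limit, met the criteria in 5 of 11 alternative settings, and was -0.37 without replicate 2.

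With Gusuibu, SPP1 had 3842, 6273 and 5711 CPM against 5934 to 10238 CPM (median 7642). All 3 wells were below the median and 2 were below every DMSO well, with a log2 fold change of -0.50 (SE 0.14) that did not meet the criteria. With Roucongrong it had 7164, 4640 and 5620 CPM around a DMSO median of 4663 CPM, a log2 fold change of 0.25 (SE 0.17).

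IGFBP7 encodes a secreted protein that binds insulin-like growth factors and sits in the basement membrane. The Yinyanghuo wells had 857, 424 and 789 CPM, from 18, 6 and 28 counts, and the DMSO wells 917 to 2839 CPM (median 1510). All 3 herb wells were below all DMSO wells, as they were for FN1 and VCAN. The means were 690 ± 233 CPM (SD, n = 3) and 1601 ± 538 CPM (SD, n = 16), with a log2 fold change of -1.17 (SE 0.32), or 2.25 times lower. FN1, VCAN and IGFBP7 were the 3 genes of the 8 that met the criteria under each of the 11 alternative settings tried for this herb.

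IGFBP7 was below the DMSO median in all wells of the other herbs as well. With Roucongrong it had 2025, 2195 and 2796 CPM against 2266 to 4967 CPM (median 3024), a log2 fold change of -0.49 (SE 0.21). With Gusuibu it had 1761, 1485 and 895 CPM against 1070 to 2268 CPM (median 1901), a log2 fold change of -0.44 (SE 0.20). Neither met the criteria. The choice of controls changed these values: against the controls of the other herbs the Roucongrong value became 0.53 and the Gusuibu value -0.93, of which the latter met the criteria.

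MMP7 encodes matrilysin, a metalloproteinase without a hemopexin domain that epithelia secrete. It was close to the floor of 3 counts in most wells, with 0 to 8 counts (median 3) in the DMSO wells of the Roucongrong set, 0 to 7 (median 1.5) in those of the Yinyanghuo set and 0 to 4 (median 1.5) in those of the Gusuibu set. The Roucongrong wells had 2, 0 and 32 counts. Only replicate 3 stood out, and the log2 fold change of 1.99 (SE 0.72), which met the criteria, became -1.37 without it. The Yinyanghuo wells had 4, 8 and 3 counts and the Gusuibu wells 0, 4 and 5. These gave log2 fold changes of 1.43 (SE 0.74) and 0.82 (SE 0.64) that did not meet the criteria. With Yinyanghuo, MMP7 met them in 4 of 9 alternative settings: DESeq2 (1.67), RLE normalization (1.57), without replicate 3 (1.94) and against the controls of the other herbs (1.91); without replicate 2, which had 8 counts, it was at 0.50 and did not. At this depth MMP7 allows no statement beyond the single well with 32 counts.

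Replicate 2 of Yinyanghuo bears on several of these values. It had 13581 counts, below the lowest DMSO total of its set, and it was the lowest of the 3 herb wells for FN1, SDC2, LAMC1, SPP1 and IGFBP7, but the highest for VCAN and MMP7. Without it, 3 of the 8 genes met the criteria in place of 6, namely FN1 at -1.34, VCAN at -1.99 and IGFBP7 at -0.98. Over all genes tested, 46 of 398 met them without this well and 60 of 400 with it. The part of its depth in the values of the remaining genes was not tested.

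The rest of the matrix pathway was followed in lists of genes known for these roles. Of 54 other matrix proteins and proteoglycans, 10 were on the panel, and none met the criteria with any herb. None of the 10 reached a mean of 20 counts per well, and the best counted was TNC (tenascin-C) at 12.5. Of 21 matrix proteases and inhibitors, 4 were on the panel and none met the criteria. TIMP1, the inhibitor of metalloproteinases that was the best counted of these at 114 counts per well, had log2 fold changes of 0.35 (SE 0.16), 0.044 (SE 0.16) and -0.10 (SE 0.15) with Roucongrong, Yinyanghuo and Gusuibu. Of 9 genes of TGF-beta signalling, the classical inducer of matrix genes, 4 were on the panel and none met the criteria. TGFB1 itself had log2 fold changes of 0.045 (SE 0.15), 0.21 (SE 0.15) and -0.20 (SE 0.14) in the same order.

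Among 35 receptors of the matrix and proteins of the focal adhesion, 9 were on the panel. With Yinyanghuo 2 of the 9 met the criteria on the lower side (7.25% of all genes) and 1 on the higher side (7.75%), with Gusuibu 1 on the higher side (7.71%), and with Roucongrong none. ITGAV, the integrin alpha-V chain, which pairs with several beta chains to bind fibronectin and osteopontin, had 1666, 777 and 1099 CPM with Yinyanghuo against a DMSO mean of 2702 ± 632 CPM (SD, n = 16). All 3 wells were below all DMSO wells, and the log2 fold change was -1.18 (SE 0.24). PTK2, the focal adhesion kinase, was at -0.75 (SE 0.33) from 8, 3 and 29 counts, and ITGB2, an integrin chain of leukocytes, was at 0.98 (SE 0.43) from 18, 2 and 25 counts. PTK2B, the related kinase, was at 1.30 (SE 0.31) with Gusuibu, at 1067, 2407 and 1002 CPM from 20, 94 and 47 counts. Its DMSO mean was 625 ± 339 CPM (SD, n = 16), and only replicate 2 was above all DMSO wells. ITGB1, the beta-1 chain that forms the main fibronectin receptor and was counted most in this list, was at -0.36 (SE 0.15) with Yinyanghuo and -0.38 (SE 0.11) with Gusuibu and did not meet the criteria. The median log2 fold change of the list was -0.36 with Yinyanghuo, -0.18 with Roucongrong and -0.20 with Gusuibu. Over all genes tested it was -0.13, -0.036 and 0.035. The Yinyanghuo median includes ITGAM (-2.30) and ITGAX (-1.95), which averaged 0.30 and 0.65 counts per well. ITGB3 and PXN were at -0.022 and 0.039 with this herb, so no general fall of the list is read from it.

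The DMSO wells of the sets were also compared with each other. The same wells were the controls of the fold changes on which the genes were chosen, so these values are a description too, and nothing is read from the shares given with them. Between the DMSO wells of the Yinyanghuo and Roucongrong sets, 6 of the 8 genes differed at an adjusted p under 0.05 by edgeR's quasi-likelihood test over 412 genes, where 21.4% of all genes did. Between the Roucongrong and Gusuibu sets 6 of the 8 differed as well, and 22.6% of all genes. They were the same 6 genes. VCAN, IGFBP7 and LAMB1 were higher in the DMSO wells of the Roucongrong set, and SDC2, LAMC1 and SPP1 were lower. Between the Yinyanghuo and Gusuibu sets none of the 8 differed, and 5.83% of all genes did. In that contrast 3 of the 8 genes had an unadjusted p under 0.05 by the same test, a level at which all genes were not counted. FN1 alone of the 8 passed with DESeq2, with a minimum mean count of 5, with filterByExpr and with a block on the well number. Over all genes, 30 of 412, 30 of 215, 30 of 189 and 51 of 412 passed under these settings. Which wells shared a plate is not stated, so the part of the plate was not tested.

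VCAN had a mean of 2217 ± 659 CPM (SD, n = 16, TMM over the 48 DMSO wells) in the Roucongrong set, 1146 ± 254 CPM in the Yinyanghuo set and 1204 ± 342 CPM in the Gusuibu set. The Yinyanghuo set was lower than the Roucongrong set by a log2 difference of -0.94 (SE 0.13), and the Roucongrong set higher than the Gusuibu set by 0.86 (SE 0.13). These differences between DMSO wells were about as large as the log2 fold change of VCAN with Roucongrong, -0.99. IGFBP7 differed more, with means of 3436 ± 817, 1567 ± 552 and 1767 ± 299 CPM (SD, n = 16 each) in the Roucongrong, Yinyanghuo and Gusuibu sets. Its log2 differences were -1.12 (SE 0.13) for Yinyanghuo minus Roucongrong and 0.95 (SE 0.12) for Roucongrong minus Gusuibu, and in the latter all 16 wells of the Roucongrong set lay above all wells of the Gusuibu set.

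LAMB1 and LAMC1 differed between the sets in opposite directions. For Roucongrong minus Gusuibu the log2 difference was 0.40 (SE 0.080) for LAMB1 and -0.69 (SE 0.14) for LAMC1. SDC2 and SPP1 were lower in the Roucongrong set than in the Gusuibu set, by -0.30 (SE 0.069) and -0.53 (SE 0.084). FN1 had means of 44834 ± 5667, 45950 ± 10164 and 39627 ± 5687 CPM (SD, n = 16 each) in the Roucongrong, Yinyanghuo and Gusuibu sets. Its largest log2 difference was 0.21 (SE 0.079), for Yinyanghuo minus Gusuibu. The log2 fold change of FN1 with Yinyanghuo, -1.48, was larger than any of its differences between DMSO sets, whereas those of LAMB1 and IGFBP7 with Roucongrong, -0.32 and -0.49, were smaller than the differences of these genes between the Roucongrong set and either other set.

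**Figure D3:**
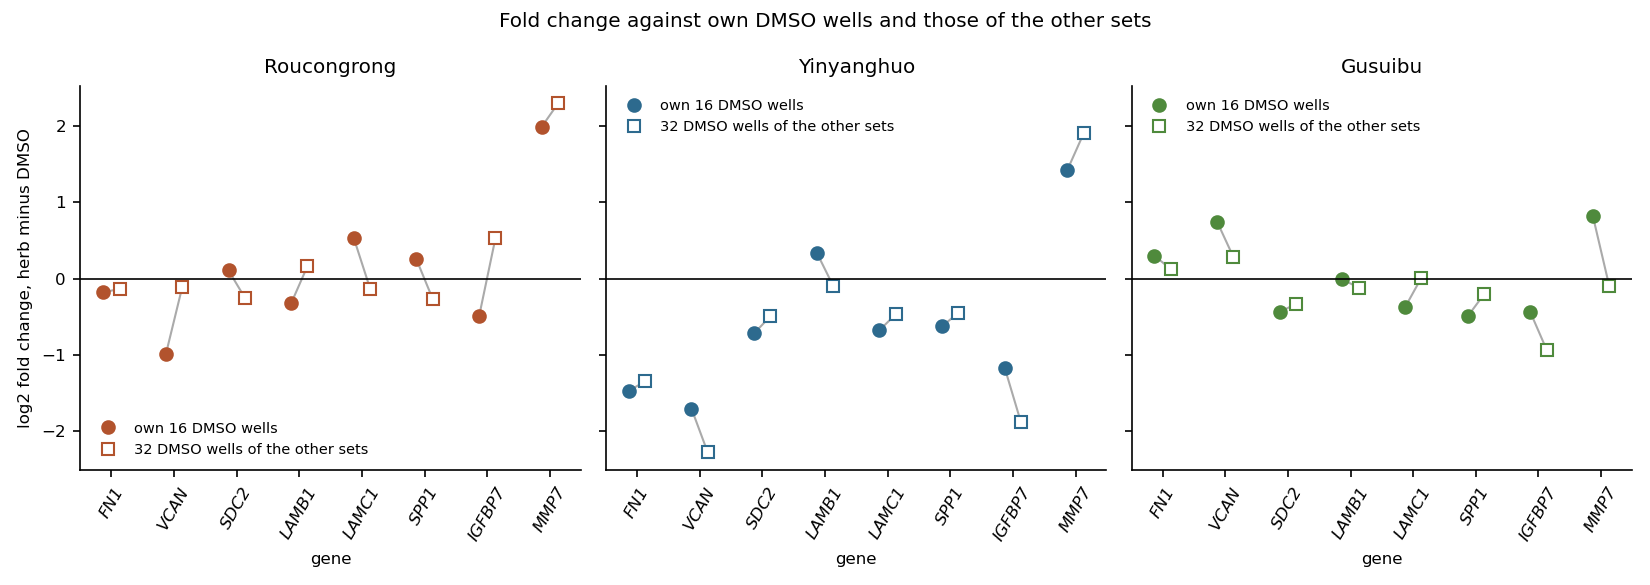
Log2 fold change of each gene with each herb against the 16 DMSO wells of its own set (filled circles) and against the 32 control wells of the other herbs (open squares). With Yinyanghuo, FN1 lies at -1.48 and -1.35 and VCAN at -1.71 and -2.28. The sign changes for 5 of the 8 genes with Roucongrong, for LAMB1 with Yinyanghuo, and for LAMC1 and MMP7 with Gusuibu.

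With the control wells of the other herbs in place of its own, the values with Roucongrong were -0.12 for VCAN, -0.25 for SDC2, 0.16 for LAMB1, -0.13 for LAMC1, -0.27 for SPP1 and 0.53 for IGFBP7, and the last 5 were on the other side of 0 than with its own DMSO wells. With Yinyanghuo, FN1 (-1.35), VCAN (-2.28) and IGFBP7 (-1.89) met the criteria against either group of controls. SDC2 (-0.49), LAMC1 (-0.47) and SPP1 (-0.45) stayed lower without meeting them. LAMB1 went to -0.092, and MMP7, at 1.91, met the criteria.

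Well-to-well spread set how small a change could be seen. Among the 16 DMSO wells of a set, the coefficient of variation of SDC2 was 10.1% to 18.4% and that of FN1 12.6% to 22.1%, although their mean counts would give at most 4.57% and 2.68% from counting alone. For LAMC1 it was 23.2% to 31.2%, where counting alone gives 15.7% to 18.4%. MMP7, with 73.0% to 92.3%, was near or above the 54.9% to 78.4% that counting gives.

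Whether the genes vary together without a herb was tested among the 16 DMSO wells of each set, for the 7 genes that averaged 20 counts or more, in 63 pairs and sets. By Pearson's r no pair passed an adjusted p under 0.05 in any set, while 4, 2 and 4 of 21 pairs had an unadjusted permutation p under 0.05 in the Roucongrong, Yinyanghuo and Gusuibu sets. An r of 0.5 or more in size was found in 4, 2 and 3 of the 21 pairs, and in 2035, 1077 and 931 of all 10153 pairs of the 143 genes that averaged 20 counts or more. FN1 and VCAN had the highest r in the Yinyanghuo and Gusuibu sets. In the Yinyanghuo set it was 0.71 (permutation p = 0.0020, adjusted p = 0.076) with a Spearman's rho of 0.81 (permutation p = 0.00027, adjusted p = 0.017), and r was 0.67 without the 2 wells farthest from the median of FN1. In the Gusuibu set r was 0.71 (permutation p = 0.0024, adjusted p = 0.076) and rho 0.72 (permutation p = 0.0025, adjusted p = 0.064), and r was 0.85 without 2 wells. In the Roucongrong set r was 0.48 (permutation p = 0.058, adjusted p = 0.32) and rho 0.51 (permutation p = 0.048, adjusted p = 0.25), and r was 0.51 without 2 wells. The pair of FN1 and VCAN thus passed the correction by rank in 1 of 3 sets, that of Yinyanghuo. The permutations take the genes as unrelated, yet 10.6% of all pairs in that set had an r of 0.5 or more in size. How many of all pairs would pass by rank was not tested. With the log2 total count, FN1 and VCAN had r of 0.51 and 0.23 in the Yinyanghuo set. These were 0.37 and 0.55 in the Gusuibu set, and 0.25 and -0.22 in the Roucongrong set. The part of depth in this pair was not tested.

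SDC2 and LAMB1 leaned in opposite directions in each set, with r of -0.64, -0.48 and -0.52 in the Roucongrong, Yinyanghuo and Gusuibu sets (permutation p = 0.0071, 0.063 and 0.039), and none of these passed the correction (adjusted p = 0.14, 0.32 and 0.27). LAMB1 and LAMC1, the partners in laminin, had r of -0.45, -0.032 and -0.50. The median r over the 21 pairs was -0.13, 0.022 and -0.015, beside 0.011, 0.024 and 0.026 over all pairs of the 143 genes.

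**Figure D4:**
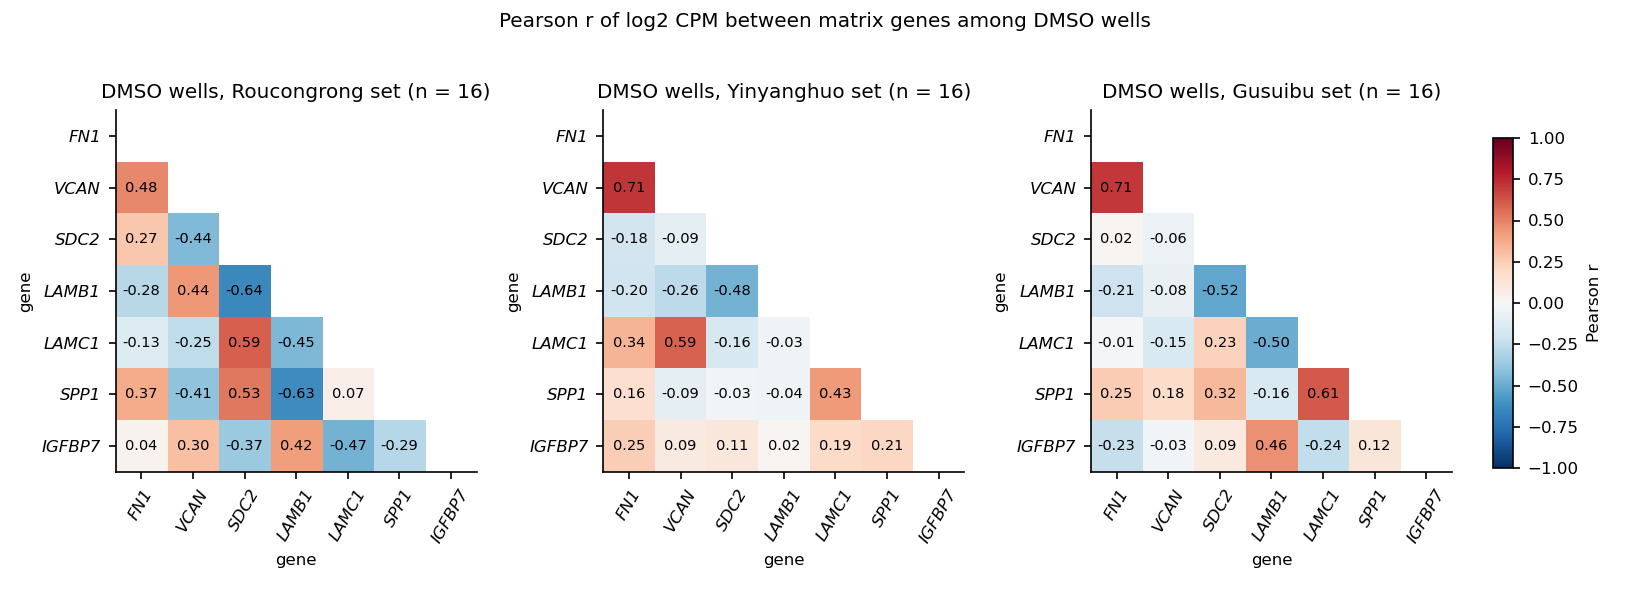
Pearson's r of the log2 CPM of each pair of matrix genes over the 16 DMSO wells of each set; red is positive and blue negative, and the value is written in each cell. FN1 with VCAN is red in each set (0.48, 0.71 and 0.71), and SDC2 with LAMB1 is blue in each (-0.64, -0.48 and -0.52).

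The genes most like FN1 over the 48 DMSO wells, with each set centred on its own mean, were EREG (r = 0.61), ITGAV (r = 0.61) and VCAN (r = 0.61), out of 143 genes that averaged 20 counts or more. Those most like VCAN were RICTOR (r = 0.69), MED1 (r = 0.61) and FN1 (r = 0.61). EREG encodes the growth factor epiregulin, RICTOR a subunit of the second mTOR complex and MED1 a subunit of the Mediator complex. These are descriptions over wells that share a set, a depth and a scaling, and say nothing on shared control.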

How the data were processed

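Raw counts of sequenced probe pairs for each gene were deposited by the authors, 1 file per well and not normalized. Reads with more than 3 mismatches had been removed, and the submitters' processing notes name Bowtie2 2.2.4 and DESeq2 1.22.1. The genome build is not given in the sources used here. Wells were grouped by their labels, and none was left out. All 412 Entrez identifiers matched a RefSeq symbol.

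For each herb, its 3 wells were set against the 16 DMSO wells of its own set by edgeR 4.0.16 in R 4.3.3, with TMM normalization, a quasi-likelihood F test and all genes with a nonzero total. The 48 DMSO wells had a separate fit between sets with Benjamini-Hochberg adjustment over 412 genes. Both fits were also run on simulated counts in which every gene had the same spread. This does not test them at the spread of these wells. Correlations used log2 CPM with a prior count of 2, 100000 two-sided permutations and Benjamini-Hochberg adjustment over 63 values. Differences between herbs come from a fit of all 57 wells.

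The genes and lists were chosen with earlier results of these data known. Named genes are the 8, the listed genes on the panel and the 3 most like FN1 or VCAN; single listed genes that met no criteria (TNC, TIMP1, TGFB1, ITGB1), ITGB2, which has fewer than 20 counts, and the markers were named after their values were seen. The ratios within wells were also added after the data were seen. Alternatives were RLE normalization, the total count alone, DESeq2 1.42.0, filterByExpr, a minimum mean count of 5, each herb well left out, other sets' DMSO wells, all 57 wells and, for correlations, a prior count of 0.5. The numbers in the well labels did not pair herb and DMSO wells (r of their deviations over 0.1 in 1, 1 and 0 of 3 pairs). Between sets, same-numbered wells were more alike. For Yinyanghuo with Roucongrong, Yinyanghuo with Gusuibu and Roucongrong with Gusuibu, r was over 0.1 in 8, 10 and 10 of 16 DMSO pairs. The highest of these was 0.83. Herb wells passed 0.1 in 1, 3 and 2 of 3 pairs, in the same order. The main fits took all wells as independent, so standard errors of differences between sets leave this out. A block on the numbers was an alternative. The probe sequences were not used, so reads shared with related genes were not examined. Figures were drawn with matplotlib 3.10.9.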

Additional observations from a re-analysis of the deposited data

Results flagged for a closer look

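Genes are given here where every well of a herb lay on one side of its DMSO median and every well of another herb lay on the other side; none of these differences was tested, because the genes were chosen with the herb contrasts known. FN1 was below the median with Roucongrong (log2 fold change -0.18) and Yinyanghuo (-1.48) and above it with Gusuibu (0.30). VCAN was below it with Roucongrong (-0.99) and Yinyanghuo (-1.71) and above it with Gusuibu (0.75). Against the controls of the other herbs, VCAN was at -0.12 with Roucongrong and 0.28 with Gusuibu, and neither met the criteria. LAMB1 was below it with Roucongrong (-0.32) and above it with Yinyanghuo (0.34), and both values change sign against the controls of the other herbs. LAMC1 was above it with Roucongrong (0.53) and below it with Yinyanghuo (-0.68) and Gusuibu (-0.38). Without replicate 2 of Yinyanghuo its value with that herb was -0.32. Against the controls of the other herbs, LAMC1 changed sign with Roucongrong (-0.13) and Gusuibu (0.0090).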

How the results depend on the processing

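With Yinyanghuo, the log2 fold changes of FN1 (-1.60 to -1.34), VCAN (-2.28 to -1.42) and IGFBP7 (-1.89 to -0.98) kept their direction and met the criteria in each of 11 alternatives. The number of genes that met the criteria ranged from 3 to 7 when single wells were left out for Yinyanghuo, from 2 to 3 for Roucongrong and from 1 to 2 for Gusuibu; the 3 came without replicate 2 of Yinyanghuo. For Roucongrong the number was 1 under a minimum mean count of 5, under filterByExpr (both of which leave MMP7 out) and against the other sets' DMSO wells. Over the panel these gave 21 of 225, 19 of 208 and 37 of 410 genes. Against the other sets' DMSO wells, the sign changed for SDC2 (-0.25), LAMB1 (0.16), LAMC1 (-0.13), SPP1 (-0.27) and IGFBP7 (0.53) with Roucongrong. It also changed for LAMB1 (-0.092) with Yinyanghuo, and for LAMC1 (0.0090) and MMP7 (-0.097) with Gusuibu. MMP7 with Roucongrong was -1.37 without replicate 3 and reached 2.60 without replicate 2. LAMB1 with Gusuibu, at -0.0081, was 0.058 with RLE, 0.068 with the total count alone, 0.046 with DESeq2, 0.043 with a minimum mean count of 5, 0.045 with filterByExpr, -0.10 to 0.067 without single wells, and 0.018 with all 57 wells. The cause of these changes was not tested.

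The block on the number in the well label gave 4 genes for Yinyanghuo (without LAMC1 and SPP1), 3 for Roucongrong (with IGFBP7) and 1 for Gusuibu. Over the panel it gave 37 of 400, 26 of 402 and 22 of 402 genes in the same order. It put LAMB1 with Gusuibu at 0.13. No well of a herb correlated best with the DMSO well of its own number. Between the Yinyanghuo and Gusuibu DMSO wells, 1 of the 8 genes, FN1, passed with DESeq2, a minimum mean count of 5, filterByExpr and the replicate block. Over all genes, 30 of 412, 30 of 215, 30 of 189 and 51 of 412 did so. Scaling by the total count alone gave 2 pairs that covary in the Roucongrong set and 1 in the Gusuibu set. Over the panel, the genes that met the criteria ranged from 19 to 54 of those tested with Roucongrong, 37 to 81 with Yinyanghuo and 19 to 42 with Gusuibu. The median over all genes with Yinyanghuo was -0.13, and 0.12 with DESeq2. VCAN, LAMC1, IGFBP7 and MMP7 rest on 2 to 28 counts in each Yinyanghuo well.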
